A study of Mus musculus with 2 samples.

Results

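The 33 genes described here encode the steps of glycolysis and a set of transcripts that low oxygen is known to induce. They are 33 of the 24510 genes counted in a single capture of cells from B16F10 melanomas, taken by name from a list that was drawn up with earlier results of these data known; the rule itself uses no measured value. B16F10 is a pigmented mouse melanoma line, and the tumours were grown under the skin of female C57BL/6 mice in 3 groups of 3 mice, which received wild-type cells, Tyr knockout cells or Oca2 knockout cells. The product of Tyr, tyrosinase, starts the making of melanin, and that of Oca2 is a melanosome protein that pigmentation needs. Cells from the tumours stained for CD45, the surface protein of blood-derived cells, were sorted, labelled with a sample tag per group, pooled and captured on the BD Rhapsody system, which counts mRNA molecules by their molecular identifiers. The mice of a group were pooled under a tag, so values of single mice cannot be seen. The sources used here give no age and no day of collection, and do not say which of tags 8, 9 and 10 belonged to which tumour genotype. The tags are therefore treated as 3 unassigned samples, no genotype is compared, no p-value is given, and each value stands as the level in tag 8, tag 9 and tag 10 or as their median and range.

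Glycolysis splits glucose into pyruvate in the cytosol and yields ATP without oxygen. When pyruvate is turned into lactate rather than burned in mitochondria, the cell regenerates the NAD that glycolysis needs, and lactate leaves through monocarboxylate transporters. In low oxygen the prolyl hydroxylases of the EGLN family stop marking the HIF-1 alpha protein for destruction, and the HIF complex binds the core letters ACGTG or GCGTG near genes for glucose uptake, glycolysis, removal of mitochondria and the hydroxylases themselves. Activated macrophages, neutrophils and T cells are also known to raise glycolysis when oxygen is plentiful. Hif1a is regulated largely at the protein level, so its transcript is no measure of HIF activity.

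Of 14899 cell barcodes, 13090 carried a single tag. The 10491 with 200 or more genes and 25% or less mitochondrial molecules were kept, 3336, 3486 and 3669 in tags 8, 9 and 10, with a median of 3489 molecules a cell. The mitochondrial limit removed 26.2% of the cells of tag 8, 17.4% of tag 9 and 14.9% of tag 10. Gates on raw counts of marker genes, none of them among the 33, placed 6030 cells in 1 of 16 classes. Eosinophils, with 16 cells in tag 8, were left out, and 15 classes were compared. Numbers of cells ranged from 79 melanoma cells to 1388 C1q macrophages, and median molecules a cell from 1884 in neutrophils to 11917 in type 1 dendritic cells among the immune classes. The class gated on pigment genes had Ptprc, the gene of CD45, at 14.1 to 18.3 counts (CPM, the gene's molecules per 1000000 molecules of the class in that tag), against 321 or more in every immune class, although the sort was for CD45, and its cells held a median of 48174 molecules. In the immune classes the summed CPM of Pmel, Mlana, Dct and Tyrp1 was 0.109% to 0.483% of that of the melanoma cells. These are gate markers, and cells that passed more than 1 gate were left out. The value may therefore understate the tumour transcripts counted in other cells. The sums of neutrophil and C1q genes given below are also of gate markers and have the same limit.

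Some of the 33 have near-identical copies in the mouse genome, and their molecules may have been divided among the copies during alignment. Gapdh had 76 other genes in GENCODE vM21 with 95% or more identity over 300 or more bases, of which Gm3839 and Gm10358 are counted in the table and together held 8.88% as many molecules as Gapdh. Eno1b held 16.6% as many as Eno1. For Ak4, Bnip3, Bnip3l, Gpi1, Ldha, Mif, Pgam1, Pgk1, Pkm and Tpi1 between 1 and 4 copies were found, none of them counted in the table. Levels of these genes are uncertain to that extent. GENCODE vM21 lists Aldoa under a pair of neighbouring gene identifiers, at chr7:126795234-126800751 and chr7:126800790-126809108 (GRCm38, minus strand), and the table has a single column of that name.

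The 5 members called higher in Arg1-expressing macrophages, described further below, are shown first by the 250 bases before a start listed by RefSeq. They were picked by that call. The letters ACGTG are marked because HIF complexes are known to read them. Binding and oxygen were not measured, and a link between the letters and the levels was not tested. The stretches are RefSeq's for GRCm38.p6 and run 5′ to 3′ on the gene's strand. Capitals mark ACGTG on either strand, with CACGTG taken as 1 stretch. Egln3 lies on the minus strand with its window at chr12:54203875-54204124, Bnip3 on the minus strand at chr7:138909507-138909756, Pgk1 on the plus strand at chrX:106186850-106187099, Ankrd37 on the minus strand at chr8:45999851-46000100 and Ddit4 on the minus strand at chr10:59951771-59952020.
Egln3: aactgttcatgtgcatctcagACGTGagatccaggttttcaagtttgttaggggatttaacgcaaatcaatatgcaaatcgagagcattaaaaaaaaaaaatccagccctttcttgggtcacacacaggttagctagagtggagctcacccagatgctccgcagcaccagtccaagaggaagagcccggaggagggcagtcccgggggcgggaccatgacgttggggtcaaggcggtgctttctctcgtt
Bnip3: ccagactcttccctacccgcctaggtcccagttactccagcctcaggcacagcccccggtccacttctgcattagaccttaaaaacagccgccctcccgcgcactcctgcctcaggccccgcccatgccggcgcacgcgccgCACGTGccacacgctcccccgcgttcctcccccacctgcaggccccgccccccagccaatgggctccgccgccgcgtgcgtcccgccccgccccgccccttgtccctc
Pgk1: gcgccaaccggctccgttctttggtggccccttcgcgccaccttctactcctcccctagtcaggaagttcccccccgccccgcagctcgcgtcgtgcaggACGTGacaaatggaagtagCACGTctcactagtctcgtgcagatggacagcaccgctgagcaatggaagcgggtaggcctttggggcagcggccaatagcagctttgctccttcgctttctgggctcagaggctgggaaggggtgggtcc
Ankrd37: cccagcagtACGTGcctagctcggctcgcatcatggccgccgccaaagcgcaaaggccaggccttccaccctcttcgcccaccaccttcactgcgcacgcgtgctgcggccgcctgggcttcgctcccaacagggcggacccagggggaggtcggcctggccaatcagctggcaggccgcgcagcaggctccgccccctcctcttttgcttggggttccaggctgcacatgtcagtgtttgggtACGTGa
Ddit4: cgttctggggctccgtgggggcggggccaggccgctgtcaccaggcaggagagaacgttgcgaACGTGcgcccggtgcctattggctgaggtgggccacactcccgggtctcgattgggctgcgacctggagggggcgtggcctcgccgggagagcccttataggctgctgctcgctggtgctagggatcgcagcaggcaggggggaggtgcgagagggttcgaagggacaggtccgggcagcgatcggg
The marked letters began 229 bases before the RefSeq start in Egln3, 108 in Bnip3, 150 and 131 in Pgk1, 241 and 6 in Ankrd37 and 187 in Ddit4. GENCODE vM21 places Ankrd37 at chr8:45996902-46005707, so its window lies inside that span. The windows of Bnip3 and Ddit4 also reach into the spans GENCODE gives these genes. Of the 30 members with a RefSeq window, 15 (50%) held the letters in their first listed window. The same letters were in 16.6% of the first windows of 27025 genes. Among the 5550 of these genes with 1000 or more molecules here the share was 23.8%. Both counts left out the windows of a single chromosome, which holds none of the members. The members were listed partly because low oxygen is known to induce them. Their higher share therefore follows from that choice and is no result of these data. Members with the letters included Slc2a1, Hk2, Pfkfb3, Pgam1, Ldha, Slc16a3, Egln1, Hif1a, P4ha1 and P4ha2. Of these, Pfkfb3 was lower in Arg1 macrophages than in C1q macrophages in every tag. No match says only that ACGTG is not in this window on either strand, as for Gapdh, Tpi1, Gpi1, Pfkl, Pfkp and Mif. The other core letters named above, GCGTG, were not searched for or marked. They occur in lower case in, among others, the windows of Gapdh, Pfkl and Pfkp, and also in those of Bnip3, Ankrd37 and Ddit4.

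**Figure D1:**
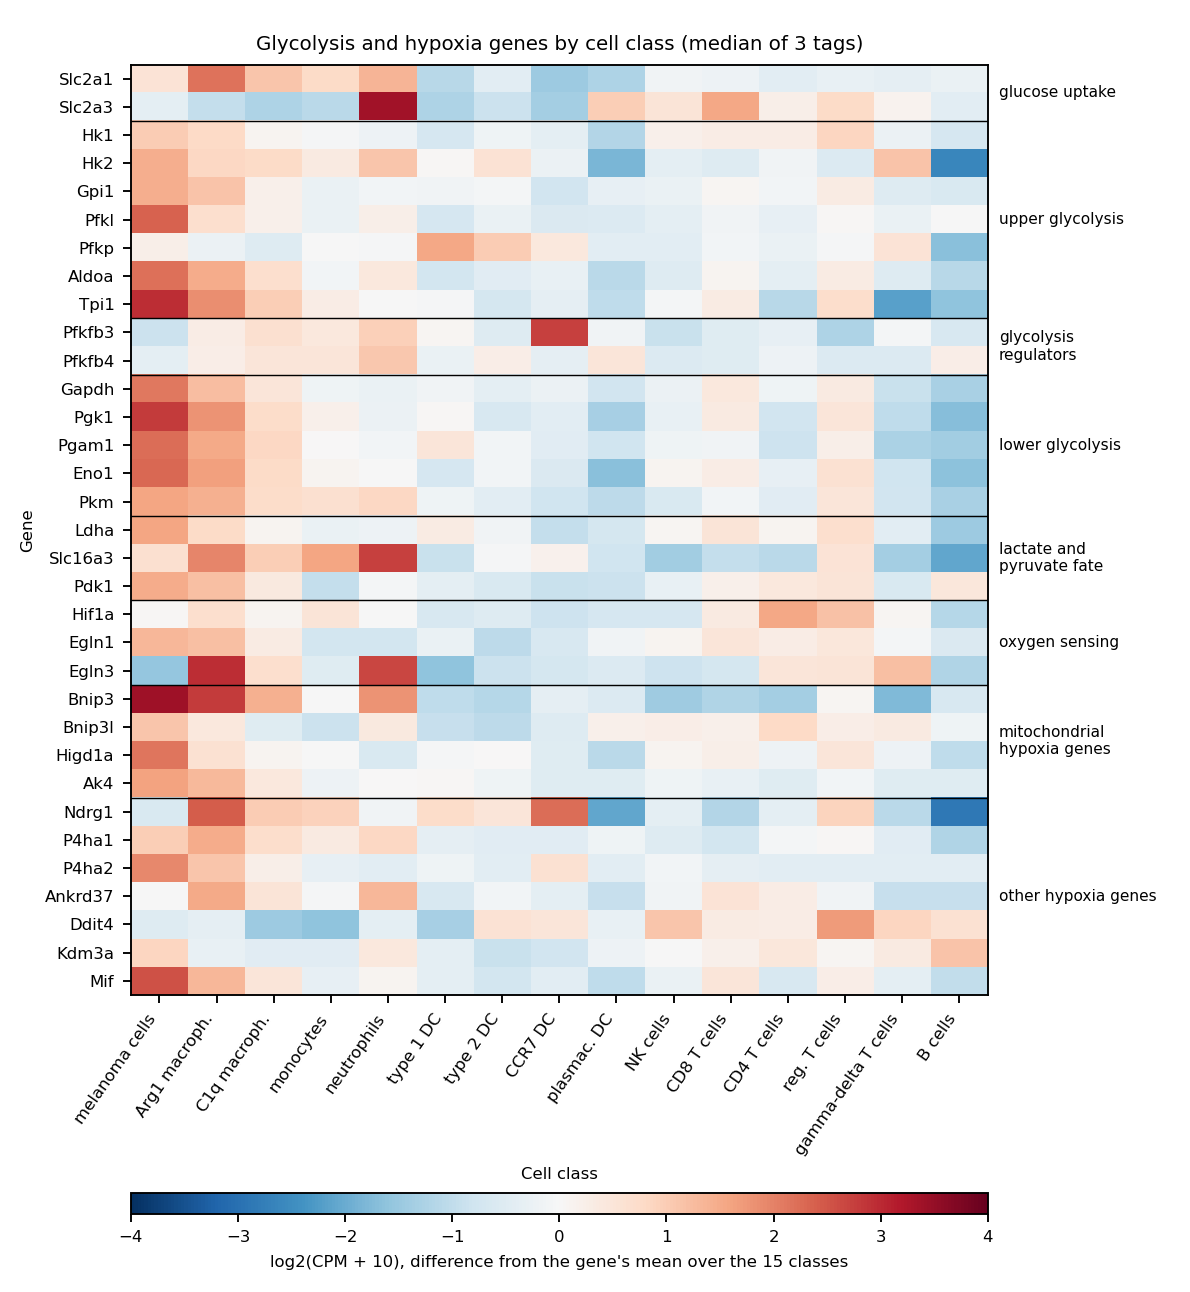
Heat map of the 33 genes (rows, grouped by role) in 15 cell classes (columns); colour gives log2(CPM + 10), median of 3 tags, minus the gene's mean over the classes. The 2 leftmost columns, melanoma cells and Arg1 macrophages, are red for most enzymes, while single red cells stand out for Slc2a3 in neutrophils and Pfkfb3 in CCR7 dendritic cells.

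The melanoma cells held the highest level of 20 of the 33 genes, and for 11 of these the lowest tag lay above the highest tag of the next class. Arg1 macrophages were highest for 5, neutrophils for 3, and CCR7 dendritic cells, type 1 dendritic cells, CD4 T cells, regulatory T cells and B cells for 1 each. B cells were lowest for 15. The heat map shows the pattern. These places depend on scaling: under trimmed-mean (TMM) normalization in edgeR 23 of the 33 kept their highest class, and Eno1, Pkm, Gpi1, Hk1, Pdk1, Egln1 and Ak4 moved from melanoma cells to Arg1 macrophages, Hk2 and Bnip3l from melanoma cells to neutrophils, and Ankrd37 from Arg1 macrophages to neutrophils.

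Glucose enters through facilitative transporters. Slc2a1, the gene of GLUT1, the widely used transporter, was highest in Arg1 macrophages at 390, 460 and 658 CPM in tags 8, 9 and 10. Neutrophils followed at 280, 245 and 257 CPM and C1q macrophages at 197, 236 and 214 CPM. The melanoma cells, highest for most enzymes, had only 133, 194 and 142 CPM, and CCR7 dendritic cells were lowest at 57.6, 28.6 and 22.5 CPM. The Arg1 macrophages thus lay above all other classes in each tag. Slc2a3, the gene of the high-affinity transporter GLUT3, had another distribution. Neutrophils had 335, 331 and 288 CPM, and the next class, CD8 T cells, 111, 62.0 and 86.1 CPM. C1q macrophages stood at 4.09, 5.66 and 3.11 CPM. Neutrophil levels did not overlap those of any other class. Slc2a3 spans chr6:122727809-122801640 on the minus strand (GRCm38), and no promoter window for it was used here.

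In upper glycolysis, from the hexokinases to triose phosphates, melanoma cells were highest for 6 of 7 genes. Tpi1, which interconverts the triose phosphates, had 1706, 1712 and 1822 CPM in melanoma cells, 808, 796 and 788 in Arg1 macrophages and 39.8, 61.9 and 30.2 in gamma-delta T cells, the lowest class. Pfkl, the liver-type phosphofructokinase, had 213, 275 and 258 CPM in melanoma cells against 73.2, 68.6 and 80.7 in Arg1 macrophages. The tumour cells stood clear of the immune classes for both genes and for Aldoa, the aldolase. For Hk1, Hk2 and Gpi1, which make and isomerize glucose 6-phosphate, the tags of the highest and the next class overlapped. Hk2, the inducible hexokinase, was at 159, 203 and 215 CPM in gamma-delta T cells, beside 208, 263 and 255 in melanoma cells. In B cells only 5 molecules of Hk2 were counted over the tags, for levels of 5.95, 0 and 22.6 CPM. Pfkp, the platelet-type phosphofructokinase, was the exception in this role. It was highest in type 1 dendritic cells at 405, 435 and 492 CPM, followed by type 2 dendritic cells at 297, 355 and 226 CPM, and lowest in B cells.

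The bifunctional enzymes PFKFB3 and PFKFB4 set the level of fructose 2,6-bisphosphate, the activator of phosphofructokinase. Pfkfb3 was at 336, 274 and 425 CPM in CCR7 dendritic cells, the dendritic cells that have switched on the chemokine receptor for migration to lymph nodes. Neutrophils came next at 90.8, 82.7 and 129 CPM, and no tag of any other class reached the lowest tag of CCR7 dendritic cells. Pfkfb3 lies at chr2:11471433-11554077 on the minus strand. Pfkfb4 was low everywhere, with 435 molecules in all kept cells, and was highest in neutrophils at 34.5, 19.3 and 20.9 CPM.

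All 5 genes of lower glycolysis, from glyceraldehyde 3-phosphate to pyruvate, were highest in melanoma cells with Arg1 macrophages next. Their melanoma levels were apart from the next class for Gapdh, Pgk1, Pgam1 and Eno1. Pgk1, the kinase of the first ATP-yielding step, was at 3230, 3492 and 3667 CPM in melanoma cells and at 1613, 1825 and 1727 CPM in Arg1 macrophages. Its median level over the tags was 24.0 times higher in melanoma cells than in B cells. Pkm, pyruvate kinase, overlapped between the leading classes, with 1780 to 2083 CPM in melanoma cells and 1693 to 1784 in Arg1 macrophages.

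Ldha, whose product turns pyruvate into lactate, was also highest in melanoma cells, with 1660, 1787 and 1878 CPM. Arg1 macrophages came next by median at 933 to 1031 CPM. They overlapped regulatory T cells at 856 to 1236 CPM and CD8 T cells at 757 to 1008 CPM. Slc16a3 encodes MCT4, the transporter that exports lactate. Its level was 543, 358 and 296 CPM in neutrophils, 209, 161 and 201 CPM in Arg1 macrophages and 154, 154 and 149 CPM in monocytes. Regulatory T cells led the lymphocytes with a median of 70.7 CPM. Pdk1, the kinase that keeps pyruvate out of mitochondria, was highest in melanoma cells with a median of 65.5 CPM, its tags overlapping those of Arg1 macrophages.

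**Figure D2:**
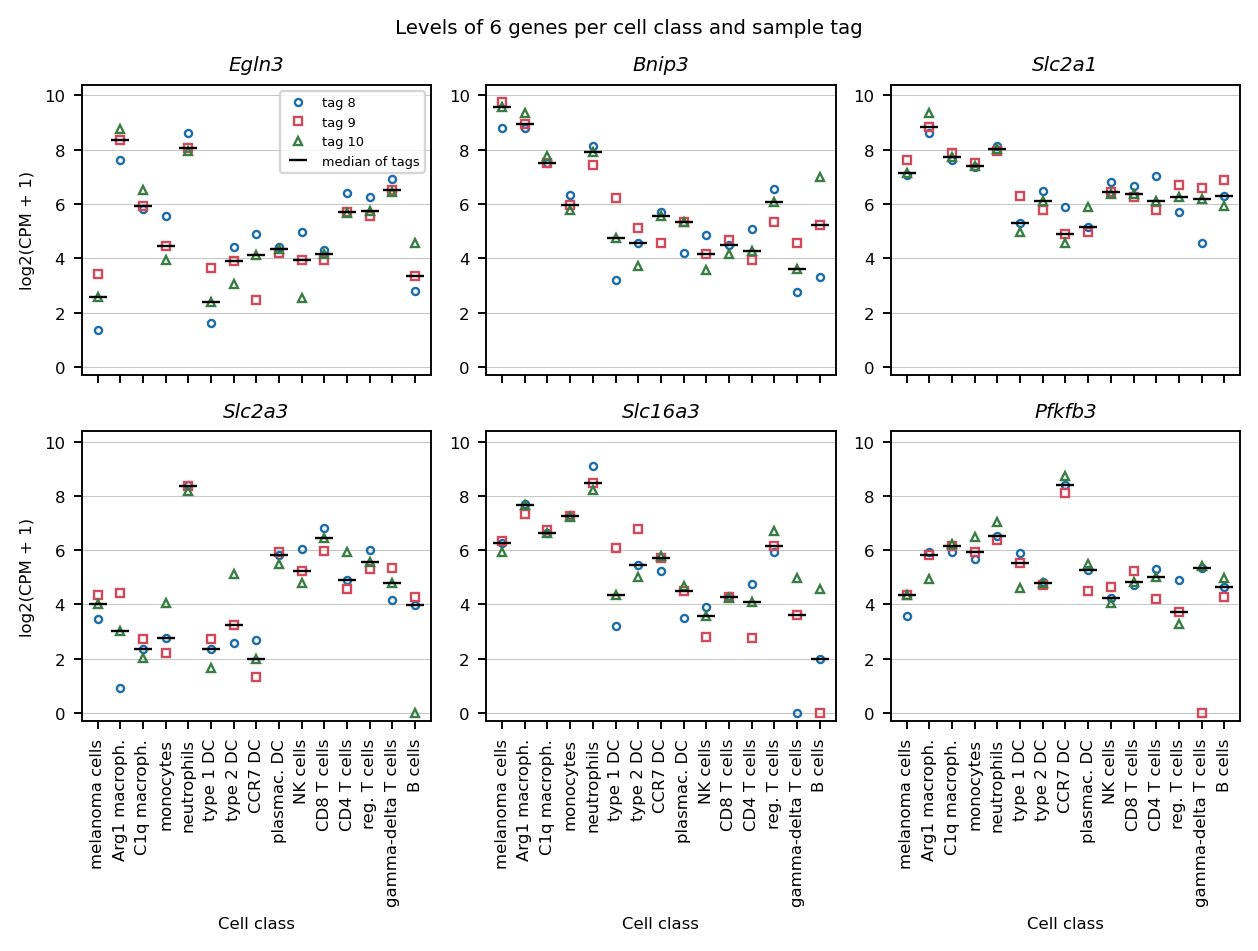
Levels of 6 genes in each class (x axis) as log2(CPM + 1) (y axis); circles, squares and triangles are tags 8, 9 and 10 and bars their median. Egln3 is highest in Arg1 macrophages and neutrophils, Slc2a3 in neutrophils and Pfkfb3 in CCR7 dendritic cells.

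Among the oxygen-sensing genes, Egln3, the hydroxylase that HIF itself induces, was at 197, 324 and 437 CPM in Arg1 macrophages and at 388, 267 and 248 CPM in neutrophils. These classes overlapped each other and lay above the third, gamma-delta T cells, at 120, 90.1 and 86.8 CPM. In melanoma cells Egln3 had a median of 5.03 CPM, so the tumour cells were near the bottom for this gene. Egln1, the main hydroxylase in most cells, was highest in melanoma cells with a median of 227 CPM, and overlapped Arg1 macrophages at 208 CPM. Hif1a transcripts were highest in CD4 T cells at 536, 573 and 467 CPM, overlapping regulatory T cells at 505, 412 and 332 CPM.

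Of the mitochondrial hypoxia genes, Bnip3, a receptor for the removal of mitochondria, was at 447, 854 and 754 CPM in melanoma cells and 448, 489 and 651 CPM in Arg1 macrophages. Neutrophils had 280, 171 and 242 CPM and C1q macrophages 183, 180 and 216 CPM. The remaining 11 classes had medians of 66.4 CPM or less. Bnip3l, its relative, was spread more evenly, with a 5.0-fold span between the highest and the lowest class. Higd1a, a respiratory chain factor, was apart in melanoma cells at 346, 509 and 406 CPM, against 124, 139 and 133 in Arg1 macrophages. Ak4, a mitochondrial adenylate kinase, was rare, with 575 molecules in all, and highest in melanoma cells at 32.8, 27.0 and 52.3 CPM.

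The other hypoxia genes divided between the classes. Ndrg1, a stress-responsive gene, was highest in Arg1 macrophages at 503, 712 and 612 CPM and overlapped CCR7 dendritic cells at 411, 560 and 538 CPM. P4ha1, a collagen prolyl hydroxylase subunit, led in Arg1 macrophages at 179, 206 and 202 CPM, and Ankrd37 at 53.9, 39.5 and 43.9 CPM. P4ha2, the second such subunit, and Mif, a cytokine, were highest in melanoma cells, with medians of 40.3 and 1027 CPM. Ddit4, which restrains mTORC1, was highest in regulatory T cells at 250, 305 and 217 CPM, ahead of NK cells at 165, 168 and 149 CPM. Kdm3a, a histone demethylase, had a median of 113 CPM in B cells, which overlapped melanoma cells.

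Arg1 macrophages, gated on 5 or more molecules of Arg1 and 2 or fewer of the C1q genes, were then compared with C1q macrophages within each tag. Arg1, an arginase gene, is itself known to be induced by low oxygen, and it is the gate. They numbered 158, 81 and 97 cells in tags 8, 9 and 10, against 376, 483 and 529. A gene is called here when its CPM was 2-fold higher or more in all 3 tags, or 2-fold lower or more in all 3, and it had 30 or more molecules over both classes. A count of 0 was set to 3 molecules. Of the 33 members, 5 were called higher and 0 lower, while over all 10159 genes compared 0.886% were called higher and 1.78% lower. In all 3 tags 26 members lay above 0 and 1, Pfkfb3, below, where 13.8% of all genes lay above and 33.7% below. The median log2 ratio of the members was 0.83, and that of all genes -0.18. Relative to the median gene of each tag, a scale added after seeing the data, 11 members were called higher and 0 lower, and the calls over all genes went from 90 higher and 181 lower to 136 and 128.

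Egln3 showed the largest ratio, a median log2 of 2.26 (range 1.83 to 2.44 over the tags), from the levels given above and 55.3, 59.7 and 91.3 CPM in C1q macrophages. Bnip3 had a median log2 ratio of 1.44 (1.29 to 1.59). Ankrd37, at 15, 17 and 17.1 CPM in C1q macrophages, had 1.36 (1.22 to 1.85). Ddit4 was at 44.8, 53.2 and 59.5 CPM in Arg1 macrophages and 12.5, 19.3 and 25.1 CPM in C1q macrophages, a log2 ratio of 1.46 (1.25 to 1.84). Pgk1, with 4048 and 10543 molecules in the classes, had the tightest ratio, 1.05 (1.04 to 1.07). For each of these 5 every tag of the Arg1 macrophages lay above every tag of the C1q macrophages. The rest of lower glycolysis stayed just short of 2-fold, with log2 ratios of 0.69 for Pgam1, 0.74 for Pkm, 0.83 for Gapdh and 0.86 for Eno1, each above 0 in all tags. Slc2a1 was at 0.99 (0.96 to 1.62), short of the rule in a pair of tags.

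Genes of the further lists were also compared. Of 33 further hypoxia genes compared, 7 were called higher and 0 lower, led by Plod2, a collagen lysyl hydroxylase, at a log2 ratio of 2.74 on 46 molecules, the vasodilator gene Adm at 2.02, Ero1l at 1.71 and Rsbn1 at 1.60. None of 17 further glycolysis genes was called. Of 20 genes of the citrate cycle and respiratory chain, 0 were called higher and 1, Idh2, lower at -1.19, and 15 lay below 0 in all tags, with a median of -0.45. Of 6 pentose phosphate genes none was called. Median depth was 6902 molecules a cell in Arg1 macrophages and 8092 in C1q macrophages. The 5 neutrophil markers summed to 41.1 to 61.8 CPM in Arg1 macrophages and 53.2 to 57.6 CPM in C1q macrophages, against 13381 or more in neutrophils. In cells thinned to 1000 molecules 3 of the 5 calls remained, with Bnip3 at 1.52 and Ddit4 at 1.10 short of 2-fold in a tag. With stricter gates the Ankrd37 call was lost, at a median of 1.40, and Bnip3l was called higher.

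A comparison added after these values were seen kept C1q macrophages only and set the 388 with 5 or more Arg1 molecules against the 802 with none. Among the 33 members 11 were called higher and 0 lower, with 1.14% and 1.01% of 9673 genes called, and 28 lay above 0 in all tags and 1 below, where 14% and 31.7% of all genes did. Egln3 was at 113, 135 and 204 CPM in cells with Arg1 and 17, 11.6 and 23.4 CPM in those without, a log2 ratio of 3.13 (2.73 to 3.54). Bnip3 was at 354, 313 and 420 CPM against 76.4, 83.7 and 79.3 CPM, a log2 ratio of 2.21 (1.91 to 2.40). P4ha2 had 2.20, Ankrd37 1.70, Pdk1 1.45, Eno1 1.30, Slc2a1 1.26, Pgk1 1.25, Egln1 1.23, Slc16a3 1.20 and Gpi1 1.02. For Egln3 and Bnip3 every tag of the cells with Arg1 lay above every tag of those without. Of 20 oxidative genes none was called and 12 lay below 0 in all tags. Of 31 further hypoxia genes 9 were called higher and 1 lower, and of 17 further glycolysis genes 2, Eno1b at 1.12 and Pgm2 at 1.31, were higher. The cells with Arg1 were deeper, at a median of 10640 molecules against 6836.5, and the part of depth in these ratios was not tested beyond thinning. Doublets within a tag were not called, and their part in these ratios was not tested. After thinning every cell to 1000 molecules 7 of 26 members compared were still called higher, with 1.11% of genes called.

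**Figure D3:**
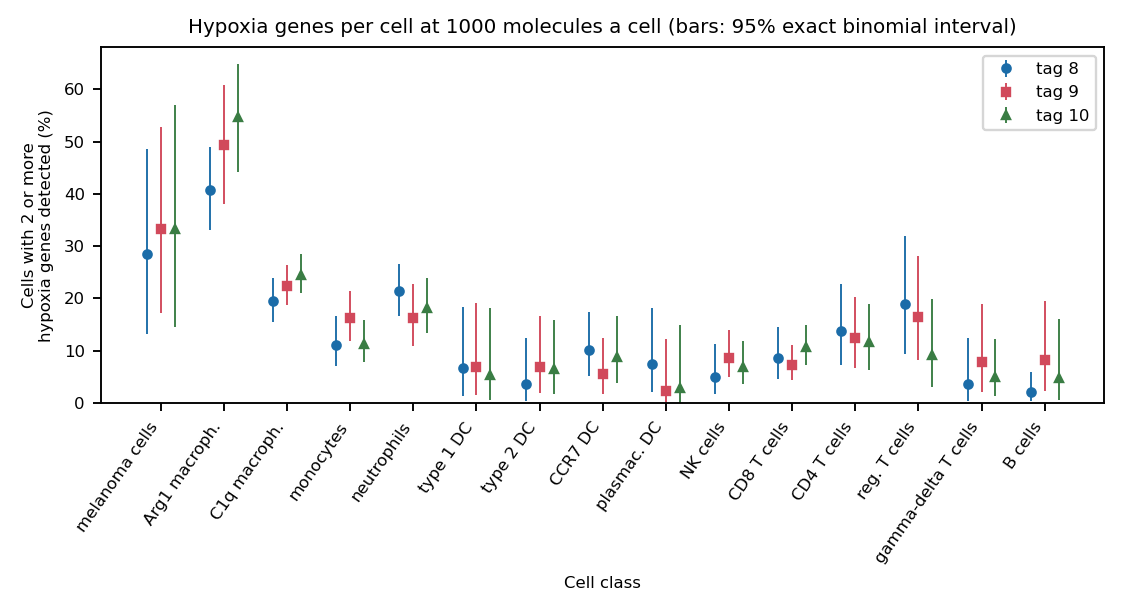
Share of cells in each class (x axis) with 2 or more of 11 hypoxia genes detected after each cell was thinned to 1000 molecules (y axis, percent); points are tags and bars exact binomial 95% intervals, which cover counting error only. Arg1 macrophages lie at 40.8% to 54.6%, above C1q macrophages at 19.5% to 24.6%.

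Counted per cell, 2 or more of 11 hypoxia genes were detected most often in Arg1 macrophages. Whether they occur together more often than their single shares give was not tested. With every cell thinned to 1000 molecules, 46.9% of 335 Arg1 macrophages held 2 or more of the 11 hypoxia genes Bnip3, Ndrg1, P4ha1, Egln3, Ankrd37, Pdk1, Ak4, Kdm3a, Slc2a1, Higd1a and Egln1. The share was 40.8%, 49.4% and 54.6% in tags 8, 9 and 10. It was 31.6% in 79 melanoma cells, 22.4% in C1q macrophages and 19.0% in neutrophils, and between 3.81% in B cells and 14.8% in regulatory T cells elsewhere. Without thinning the values were 91.7% in Arg1 macrophages, 77.3% in C1q macrophages and 33.5% in neutrophils, which have fewer molecules. Thinning left out 1 Arg1 macrophage, 9 C1q macrophages and 40 neutrophils. C1q macrophages with 2 or more molecules of Folr2, Cd163 and Cbr2, genes of resident-type macrophages, had 17.4%, 24.8% and 24.9% in tags 8, 9 and 10. Those with none had 21.7%, 22.5% and 25.2%, so the ranges over the tags overlapped. With the cells of all tags pooled the shares were 22.3% and 23.3%.

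**Figure D4:**
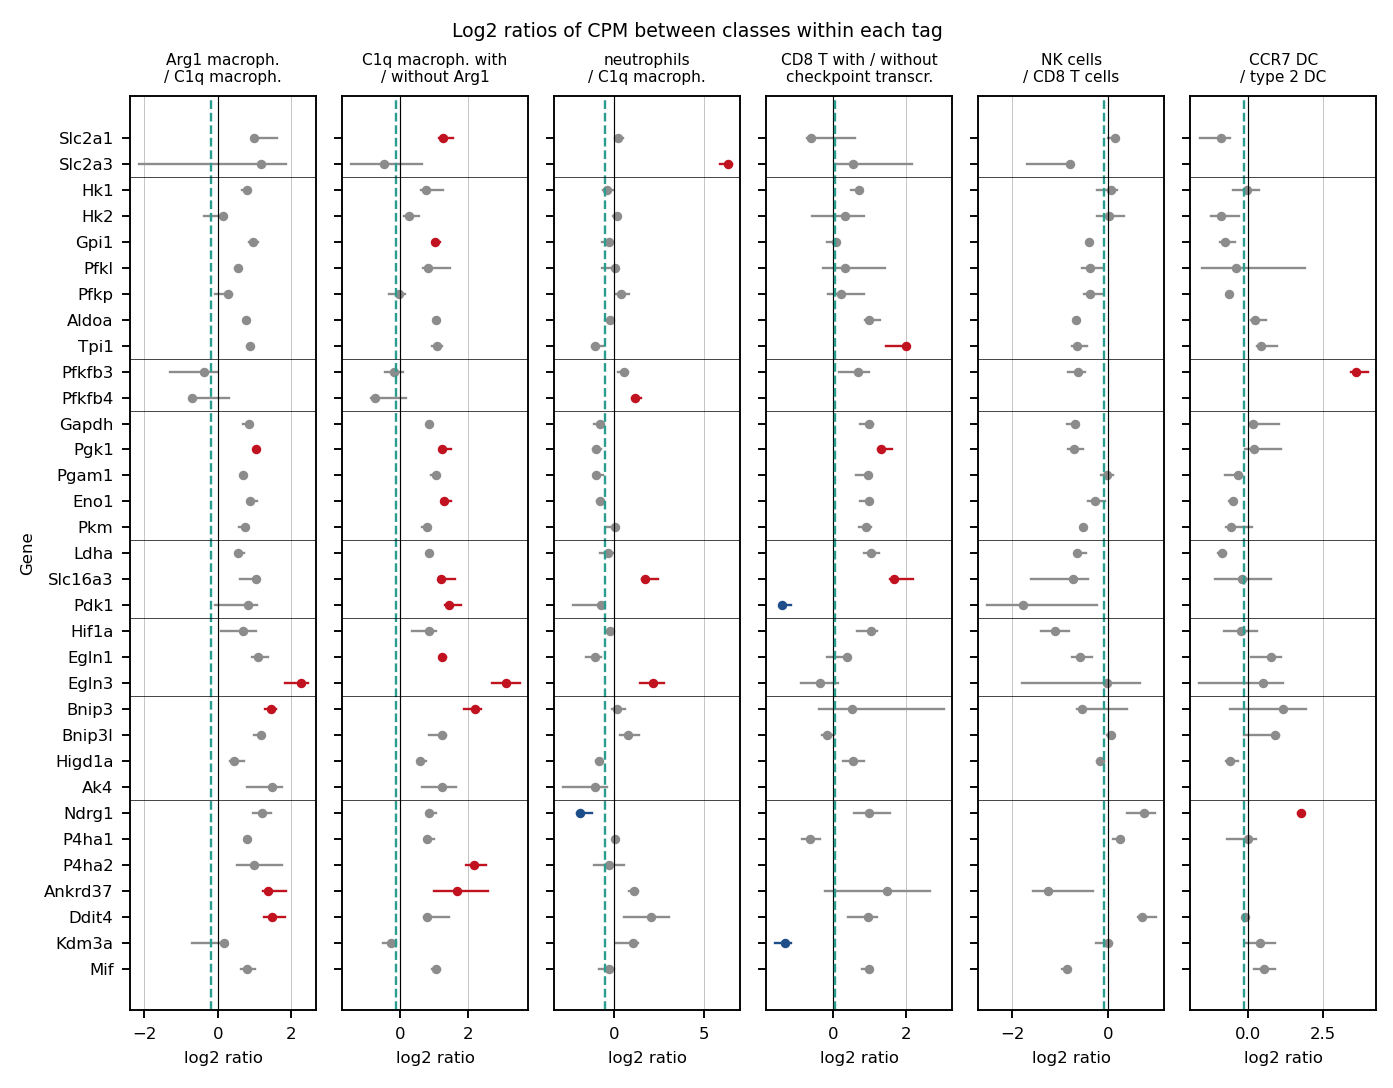
Log2 ratios of CPM for the 33 genes (rows) in 6 comparisons of classes (panels), taken within each tag; points are medians and lines the range over 3 tags. Red and blue mark genes called higher and lower in each tag, grey the rest, genes too rare to compare are left out, and the dashed line is the median of all genes; the first and second panels lie mostly right of it, the fifth left.

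Neutrophils were next set against C1q macrophages. Of the 33 members 4 were called higher and 1 lower, against 7.58% and 20.8% of 10183 genes, so the higher calls were about as frequent as among all genes. In all 3 tags 11 members lay above 0 and 15 below, where 21.3% and 49% of all genes did. This balance turned round with the scaling, to 14 above and 6 below under TMM and 14 above and 4 below relative to the median gene of each tag. Slc2a3 had the largest ratio, a median log2 of 6.36 (5.87 to 6.53), on 472 molecules in neutrophils and 53 in C1q macrophages. Egln3 was at 2.16 (1.44 to 2.81), Slc16a3 at 1.75 (1.59 to 2.47) and Pfkfb4 at 1.19 (1.02 to 1.52). Ndrg1 was called lower, at 53.2, 102 and 96.0 CPM in neutrophils and 218, 366 and 223 CPM in C1q macrophages, a log2 ratio of -1.84. The enzymes of lower glycolysis did not go with the transporters: all 5 genes had medians between -1.01 and 0.09. Gapdh, Pgk1, Pgam1 and Eno1 lay below 0 in all tags, with medians of -0.39 to -0.69 under TMM and -0.28 to -0.59 relative to the median gene. Upper glycolysis was mixed, with 1 of 7 genes above 0 and 4 below in all tags. Pfkp was higher in neutrophils, with a median of 138 CPM against 96.7 in C1q macrophages. Median ratios were -0.19 over the members and -0.49 over all genes. Under TMM scaling these became 0.38 and -0.08, the Ndrg1 call was lost at -1.36 and Ankrd37 became called higher at 1.49. The split of all genes into higher and lower calls went from 772 and 2121 to 1226 and 1301, and relative to the median gene to 1344 and 1162.

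Of 20 oxidative genes 11 were called lower in neutrophils, all 20 lay below 0 in each tag, and the median was -1.61. Named by size, these were Idh2 at -3.78, Ndufa9 at -3.06, Idh3a at -2.36 and Atp5b at -2.05. Taldo1, the pentose phosphate transaldolase, was called higher at 1.37, and was the only call among 6 genes of that path. Of 17 further glycolysis genes Slc2a6, a sugar transporter, was called higher at 2.0, and Slc16a1, the gene of the lactate transporter MCT1, lower at -2.78, with Minpp1 at -1.95. Among 33 further hypoxia genes 1, Bhlhe40, was called higher at 1.15, and Rsbn1 at -2.15 and Selenbp1 at -1.62 were called lower. Neutrophils held a median of 1884 molecules a cell and C1q macrophages 8092, and C1q genes summed to 47.0 to 75.1 CPM in neutrophils. The part of this depth gap in the ratios was not tested beyond thinning, under which Pfkfb4, at 0.94, fell short of the rule. The Pfkfb4 call was also lost without mitochondrial, ribosomal protein and immunoglobulin genes at 1.12, with at most 10% mitochondrial molecules at 1.10 and as the mean of each cell's CPM at 0.77.

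CD8 T cells were split by transcripts of the checkpoint receptor genes Pdcd1, Havcr2, Lag3 and Tigit, 380 cells with 2 or more molecules and 206 with none. Of 30 members compared 3 were called higher and 2 lower in the cells with them, where 3.43% and 2.57% of 8511 genes were called. Tpi1 was at 361, 384 and 305 CPM in cells with checkpoint transcripts and 90.5, 141 and 72.2 CPM in cells without, a log2 ratio of 1.99 (1.45 to 2.08). Pgk1 was at 712, 820 and 747 CPM against 304, 332 and 245 CPM, a ratio of 1.30 (1.23 to 1.61). Slc16a3 had 78 molecules in cells with and 5 in cells without, for a ratio of 1.67 (1.56 to 2.18). Pdk1 was called lower at -1.41, with 14.1 to 27.8 CPM against 31.4 to 74.5 CPM, and Kdm3a at -1.32, with 32.0 to 42.5 CPM against 91.0 to 106 CPM. In all 3 tags 17 members lay above 0, including each lower glycolysis gene, where 29.7% of all genes did, and 3 lay below 0, where 21.8% did. The member median was 0.69 and that of all genes 0.06. Relative to the median gene the calls over all genes went from 292 higher and 219 lower to 236 and 268, and the same 5 members stayed called.

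The 2 groups of CD8 T cells also differed in depth. Cells with checkpoint transcripts held a median of 7531 molecules and those without 3384, and the gate itself counts molecules. In cells thinned to 1000 molecules none of the 5 was called and 20 members could be compared, with a member median of 0.63. There Tpi1 was at 2.03, Pgk1 at 0.78 and Kdm3a at -2.29, and Slc16a3 and Pdk1 were too rare to compare. The Slc16a3 call was also lost at 1.52 in cells with at most 10% mitochondrial molecules. As the mean of each cell's CPM, Pdk1 alone stayed called, at -1.19, with Tpi1 at 1.11, Pgk1 at 1.16 and Slc16a3 at 1.5. Oxidative genes did not part from the members here: none of 20 was called, 13 lay above 0 in all tags, and the median was 0.55. Of 26 further hypoxia genes Epas1, the gene of HIF-2 alpha, was called higher at 3.37 and Plod2 at 2.18, and Vegfa lower at -1.38. None of 12 further glycolysis genes and none of 6 pentose phosphate genes was called.

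NK cells, gated to hold no CD3, Trac or CD8 transcripts, were compared with all CD8 T cells. None of 30 members was called in either direction, where 3.26% of 9342 genes were called higher and 2.8% lower. Yet 19 lay below 0 in all tags and 4 above, where 30.2% and 23% of all genes did, and the median was -0.46 against -0.07 for all genes. Hif1a was at 131, 106 and 106 CPM in NK cells and 230, 281 and 228 CPM in CD8 T cells, a log2 ratio of -1.11 (-1.40 to -0.82), which missed the rule in 1 tag. Mif was at 123, 165 and 138 CPM against 238, 297 and 238 CPM, a ratio of -0.85. Ndrg1 at 0.77 and Ddit4 at 0.72 were the members furthest above 0 in all tags. Vegfa, the vascular growth factor gene and a HIF target, was called higher in NK cells at 4.25 on 1688 molecules, and Epas1 lower at -2.23. Of 29 further hypoxia genes 2 were called higher and 1 lower in all, and of 13 further glycolysis genes Slc2a6 was called higher at 2.70 and Eno3 lower at -1.86. Of 6 pentose phosphate genes H6pd was called higher at 1.53. Oxidative genes also lay lower, 17 of 20 below 0 in all tags with a median of -0.33. The NK cells held a median of 3584 molecules and the CD8 T cells 4773.

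CCR7 dendritic cells were set against type 2 dendritic cells, which express Cd209a. Of 27 members compared 2 were called higher and 0 lower, against 6.53% and 6.08% of 7241 genes. Pfkfb3, at 336, 274 and 425 CPM against 27.7, 25.4 and 26.7 CPM, had a log2 ratio of 3.6 (3.43 to 3.99). Ndrg1, at 411, 560 and 538 CPM against 121, 178 and 153 CPM, had 1.77 (1.66 to 1.81). The classes did not overlap for either gene. Over the 27, members were spread around 0, with 7 above and 9 below it in all tags, where 24.4% and 35.2% of all genes were, and a median of -0.04 against -0.14 for all genes. Ldha lay at -0.85 and Gpi1 at -0.76, both below 0 in all tags, and Slc2a1 at -0.90. Among the further glycolysis genes Eno3 and Eno2, the muscle and neuronal enolases, were called higher at 4.23 and 3.10 on 227 and 89 molecules, and the ADP-dependent glucokinase gene Adpgk lower at -2.65, with Slc16a1 at -1.69. Of 23 further hypoxia genes Mxi1 at 1.88 and Rora at 1.21 were called higher and P4hb lower at -1.28. None of 5 pentose phosphate genes was called, and all 5 lay below 0 in each tag. Of 20 oxidative genes 3 were called lower, Fh1 at -2.08, Idh3a at -2.05 and Idh2 at -1.69, and 14 lay below 0 in all tags. Under TMM scaling the split of all genes went from 473 higher and 440 lower to 589 and 313, and both member calls remained.

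Across the 15 classes, with the tags pooled, the mean scaled level of the hypoxia genes counted per cell above and that of the glycolysis enzymes were correlated at r = 0.88, a description over classes from a single capture that share depth and free RNA. Arg1 macrophages and melanoma cells were at the top of both, melanoma cells first for the enzymes and Arg1 macrophages first for the hypoxia genes. Aldoa at 0.92, Pkm at 0.91, Eno1 at 0.89 and Mif at 0.88 followed the hypoxia mean most closely among the genes outside it. Pfkfb4 at 0.13, Slc2a3 at -0.03, Pfkfb3 at -0.05, Pfkp at -0.09 and Ddit4 at -0.29 did not follow it. Among the genes that make up the hypoxia mean, Kdm3a was at only 0.11, Ndrg1 at 0.45 and Egln3 at 0.51. The rest of them ranged from 0.70 for Higd1a to 0.90 for Bnip3. Among 6564 other genes reaching 50 CPM in a class, those most like the hypoxia mean over the 15 classes were Eno1b at 0.93 and Ero1l at 0.93, then Gpnmb at 0.87, Slc6a8 at 0.87, Rnf128, Abhd5, Rai14, Pgm2, Gm3839 and Plod1 at 0.83 to 0.85. Eno1b and Gm3839 are near-identical copies of Eno1 and Gapdh.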

How the data were processed

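The deposited table held counts of distinct molecules per gene and cell, which the authors made with the Rhapsody pipeline 1.9.1 on GRCm38 with GENCODE vM19, per the file headers; the submitters' processing notes name GRCm39. The design text names targeted amplification; the labels and the header name a whole transcriptome library. A deposited table gave each cell's sample tag. The 1448 multiplets and 361 undetermined cells were left out, as were 111 cells that passed more than 1 gate; doublets within a tag were not called. Molecules were summed per class and tag in Python 3.11.15 and expressed as CPM, with ratios taken within a tag. All 33 members are named, with up to 4 genes of each further list by size of ratio. Limits on fibroblast and red cell genes were added to the gates after seeing those genes. The members and lists were chosen with earlier results of these data known. TMM factors came from edgeR 4.0.16. The calling script was tested on simulated data. Total molecules were 20020951 in tag 8, 20814133 in tag 9 and 22908828 in tag 10. Intervals and floors of 3 counts cover counting error only.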

Additional observations from a re-analysis of the deposited data

How the results depend on the processing

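The count of members called was within 1.5 times the reported one, for all 10 counts, with at least 500 genes a cell, at most 10% mitochondrial molecules, without mitochondrial, ribosomal and immunoglobulin genes, and (chosen after seeing the data) gates without limits on fibroblast and red cell genes. In the Arg1 comparison 3 of 29 members compared were called higher in thinned cells, with 57 of 5862 genes called. Relative to the median gene, a scale added after seeing the data, 11 were called higher, with 136 of 10159 genes called. Leaving out a tag, which asks the rule of fewer tags, 5 to 8 were called higher. Without tag 8 Slc2a3, Egln1 and Ak4 joined, and without tag 9 Slc16a3, Bnip3l and Ndrg1. Over all genes 141 of 9564, 144 of 9644 and 110 of 9300 were called higher without tags 8, 9 and 10. With all tags the count was 90 of 10159. Lower calls in neutrophils were 0 with TMM, 0 relative to the median gene, 2 with stricter gates and 2 to 3 leaving out a tag. Tpi1 and Pgam1 joined Ndrg1 without tag 8, Ak4 without tag 9 and Egln1 without tag 10. Over all genes 2310 of 9577, 2868 of 9682 and 2662 of 9263 were called lower without tags 8, 9 and 10. With stricter gates 1934 of 10130 were, and with all tags on the main scale 2121 of 10183. In CD8 T cells higher calls were 0 in thinned cells, 0 as a mean over cells and 3 to 5 leaving out a tag. Hif1a and Ankrd37 joined without tag 10. Over all genes 65 of 3417 were called higher in thinned cells and 205 of 8511 as a mean over cells. Without tags 8, 9 and 10 the counts were 544 of 8164, 534 of 7460 and 495 of 7339, beside 292 of 8511 with all tags. Lower calls of members were 0 in thinned cells, 1 as a mean over cells and 1 with at least 100 molecules. Over all genes these settings gave 38 of 3417, 118 of 8511 and 134 of 5678. Lower calls in NK cells were 2 in thinned cells, 2 with stricter gates and 1 leaving out each tag. The last were Hif1a, Ankrd37 and Pdk1 without tags 8, 9 and 10. Over all genes 124 of 5176 were called lower in thinned cells and 265 of 9248 with stricter gates. Without tags 8, 9 and 10 the counts were 425 of 9008, 368 of 8488 and 344 of 8432, beside 262 of 9342 with all tags. No ratio changed sign among the called members under these settings. The cause of each change was not tested. In thinned cells 29 of 33 members kept their highest class. Every comparison was paired by tag, since both classes came from the same tag; the labels give no replicate numbers for a further block. Depth limits rare genes such as Pfkfb4 with 435 molecules and Ak4 with 575.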
